A study of Mus musculus with 10 samples.

Results

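Genes that load peptides onto major histocompatibility complex (MHC) class II molecules were followed in the pancreas of newborn mice that express interleukin (IL)-23. They are *Cd74*, *H2-Aa*, *H2-Ab1*, *H2-Eb1*, *H2-DMa*, *H2-DMb1* and *Ciita*, chosen by name from their known role when earlier results of these data were known. All 7 were found among the 24062 genes counted. RNA was sequenced from whole pancreas of C57BL/6 mice at postnatal day 5 (P5), in 5 wild-type (WT) and 5 *KSR23* mice. *KSR23* mice carry the *R23* allele, an IL-23 cassette at the *ROSA26* locus that is silent until cre removes a floxed stop sequence, together with *K14-cre*, in which the keratin 14 promoter drives cre recombinase in keratinocytes. The transgene is therefore aimed at keratinocytes. The organs for which the paper names its RNA are skin, tongue, esophagus and gut, and pancreas is not among them. WT mice are control littermates, whose single alleles are not given in the sources used here, and no treatment is named for either group.

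MHC class II molecules display peptides from engulfed proteins to CD4 T cells. Each is a pair of an alpha and a beta chain, which the invariant chain escorts from the endoplasmic reticulum to endosomes, where proteases digest the escort and the H2-DM dimer exchanges its last fragment for an antigenic peptide. Dendritic cells, B cells and macrophages make these molecules constitutively, and interferon (IFN)γ can switch them on elsewhere through CIITA, the coactivator that is recruited to class II promoters by factors already bound to their X and Y boxes.

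Libraries held 16715976 to 57784136 counts on genes. *Il23a*, which encodes the p19 subunit of IL-23, had 1 to 9 counts per WT mouse and 21 to 48 per *KSR23* mouse. *Il12b*, the p40 subunit, had 0 to 7 and 3 to 13. Whether these counts came from the transgene was not tested. Acinar markers marked the tissue as pancreas, with summed levels of 120546 to 190039 CPM (counts per 1000000 counts of the scaled library) over the 10 mice. Alignments to more than 1 place were 49.6 to 53.7% of all alignments in WT mice and 38.5 to 42.5% in *KSR23* mice, and the part of this difference in the results below was not tested.

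Most members lie together on mouse chromosome 17, and sequence upstream of these genes is shown because CIITA acts through it. In the GRCm38 build, *H2-DMa* spans chr17:34119541-34139101, *H2-DMb1* chr17:34153072-34160230, *H2-Ab1* chr17:34257689-34269419, *H2-Aa* chr17:34282744-34287823 on the reverse strand and *H2-Eb1* chr17:34305867-34316674. *Ciita* lies on chromosome 16. RefSeq windows of 250 bases before to 50 bases after a gene's start (GRCm38.p6) were found for 4 of the 7 members. Each was searched on both strands for the X box core ACNGATG, for the Y box core GATTGG, and for an X core followed on the same strand, 10 to 40 bases on, by a Y core. The pair stood in 35 of 32851 windows of the table (0.1065%), against 9.851% with an X core and 16.11% with a Y core. Among the members *H2-DMb1* and *H2-Eb1* held it, as did their counted neighbours *H2-DMb2* and *H2-Eb2*. In the following sequences, written 5′ to 3′ on the strand of the gene, capitals mark the X and Y cores.
H2-DMb1, chr17:34153088-34153146, plus strand: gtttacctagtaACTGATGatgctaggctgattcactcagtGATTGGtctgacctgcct
H2-DMb2, chr17:34145117-34145175, plus strand: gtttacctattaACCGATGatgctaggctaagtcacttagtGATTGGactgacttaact
H2-Eb1, chr17:34305767-34305824, plus strand: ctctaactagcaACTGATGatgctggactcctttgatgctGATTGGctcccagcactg
H2-Eb2, chr17:34325534-34325591, plus strand: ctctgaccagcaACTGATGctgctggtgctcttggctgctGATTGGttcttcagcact
H2-Aa, chr17:34287855-34287913, minus strand: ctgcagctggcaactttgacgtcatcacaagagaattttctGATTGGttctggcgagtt
The X and Y cores were 22 bases apart in both DMb genes and 21 bases apart in both Eb genes. In *H2-Aa* only the Y core matched on the strand of the gene, 49 bases before the start. The windows of *H2-DMa*, taken at 2 annotated starts, held no pair. A match describes these letters only, and no binding was measured.

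The class II genes were higher in *KSR23* than in WT pancreas. All 6 members that could be tested rose, by 1.37 to 2.15 on the log2 scale, in the quasi-likelihood test of edgeR, with p-values adjusted over 13882 genes. Of all genes tested, 31% were called at an adjusted p under 0.05 and 16.2% were called higher. With library size as the only scaling, 3072 genes were higher and 1164 lower, against 2250 and 2049, and the 6 members stayed higher. Genes that also exceeded a log2 fold change of 1, as all 6 members did, made up 2.95%. The median log2 fold change was 1.85 over the 6 members and -0.01 over all genes tested. *Ciita* had fewer than 5 counts in 1 WT mouse and was not tested in this fit. In whole tissue, more cells that express a gene and more RNA per cell cannot be told apart.

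*Cd74*, on chromosome 18, encodes the invariant chain and was the most abundant member. Its level in WT replicates 1 to 5 was 24.1, 21.5, 26.1, 23.0 and 15.9 CPM, and in *KSR23* replicates 1 to 5 it was 132, 91.6, 121, 77.4 and 70.9 CPM. The groups did not overlap, and the lowest *KSR23* mouse stood well above the highest WT mouse. The mean was 22.1 ± 3.88 CPM (SD, n = 5) in WT and 98.5 ± 26.8 CPM (SD, n = 5) in *KSR23* mice, with a log2 fold change of 2.15 ± 0.16 (SE) and an adjusted p of 1.05e-08 (edgeR). Ranked by log2 fold change, *Cd74* was 63 of the 13882 genes tested.

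The classical chains followed. *H2-Ab1* encodes the beta chain of the I-A molecule. It stood at 9.46, 8.68, 12.0, 9.83 and 7.15 CPM in the WT mice, in replicate order, and at 46.1, 33.4, 37.6, 25.9 and 25.6 CPM in the *KSR23* mice. Its log2 fold change was 1.83 ± 0.16 (SE), with an edgeR adjusted p of 7.12e-08. *H2-Aa*, the alpha chain that pairs with it, stood at 4.90, 4.63, 4.84, 4.42 and 2.98 CPM in WT mice and at 22.2, 16.3, 19.6, 12.6 and 9.33 CPM in *KSR23* mice. Its log2 fold change was 1.87 ± 0.20 (SE), with an edgeR adjusted p of 1.23e-06. In both genes every *KSR23* mouse lay above every WT mouse. *H2-Eb1* encodes the beta chain of the I-E molecule, whose alpha chain gene is not functional in C57BL/6 mice. It stood at 3.50, 3.29, 4.42, 5.16 and 3.50 CPM in WT mice and at 19.2, 16.0, 15.2, 13.9 and 9.73 CPM in *KSR23* mice. The change was 1.89 ± 0.17 (SE) on the log2 scale, with an edgeR adjusted p of 1.29e-07, and the groups did not overlap. The alpha chain pseudogene *H2-Ea-ps*, which is named outside the gene lists, had 0 counts in every library, where 3 counts correspond to 0.0519 to 0.179 CPM.

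The peptide exchange genes rose as well. *H2-DMa*, the alpha chain of H2-DM, stood at 1.68, 1.10, 2.91, 1.74 and 1.49 CPM in WT mice and at 6.39, 6.31, 6.37, 4.68 and 4.68 CPM in *KSR23* mice. Its log2 fold change was 1.66 ± 0.21 (SE), with an edgeR adjusted p of 1.13e-05. The *KSR23* mice were closely grouped and all lay above WT replicate 3, the highest WT mouse. *H2-DMb1*, a beta chain of H2-DM, stood at 1.86, 1.85, 1.37, 1.39 and 1.64 CPM in WT mice and at 5.38, 4.89, 4.69, 3.81 and 2.37 CPM in *KSR23* mice. Its log2 fold change was 1.37 ± 0.22 (SE), with an edgeR adjusted p of 0.000110. *KSR23* replicate 5 came nearest to the WT mice but remained above them. Of the 75-base windows of the *H2-DMb1* transcript, 80.9% occur in no other transcript and the others are shared with *H2-DMb2*, so a part of its reads could not be placed. For the other 6 members all windows were unique. *H2-DMa* overlaps *Brd2* on the opposite strand, and whether the counting used strand is not given in the sources used here.

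*Ciita*, the coactivator of the other members, was the rarest. Its counts were 5, 20, 14, 4 and 11 in WT replicates 1 to 5, against 45, 32, 17, 27 and 29 in *KSR23* replicates 1 to 5. The mean was 0.378 ± 0.230 CPM (SD, n = 5) in WT and 0.844 ± 0.245 CPM (SD, n = 5) in *KSR23* mice, and the groups overlapped, since WT replicate 2 at 0.686 CPM exceeded *KSR23* replicates 4 and 5. With edgeR's own filter, which keeps 14498 genes, of which 16.1% were called higher, the log2 fold change was 1.14 ± 0.42 (SE) with an adjusted p of 0.0487. That filter asks for a minimum level in as many libraries as a group holds, so a gene can enter through the higher group alone. With no filter on low counts the adjusted p was 0.0579, and without WT replicate 4 the log2 fold change was 0.91 with an adjusted p of 0.0877 (both edgeR). The call on *Ciita* thus depended on the filter. The fit without WT replicate 4 used the minimum of 5 counts and so differs from the others in its filter too.

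Taken one gene at a time, a two-sided exact permutation of the group labels gave p = 0.00794 for each of the 6 tested members, the smallest p this design allows, and p = 0.0238 for *Ciita* (n = 5 per group, 7 tests, not adjusted). Every *KSR23* mouse lay above every WT mouse for 6 of the 7 members and for 10.7% of all genes tested.

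**Figure D1:**
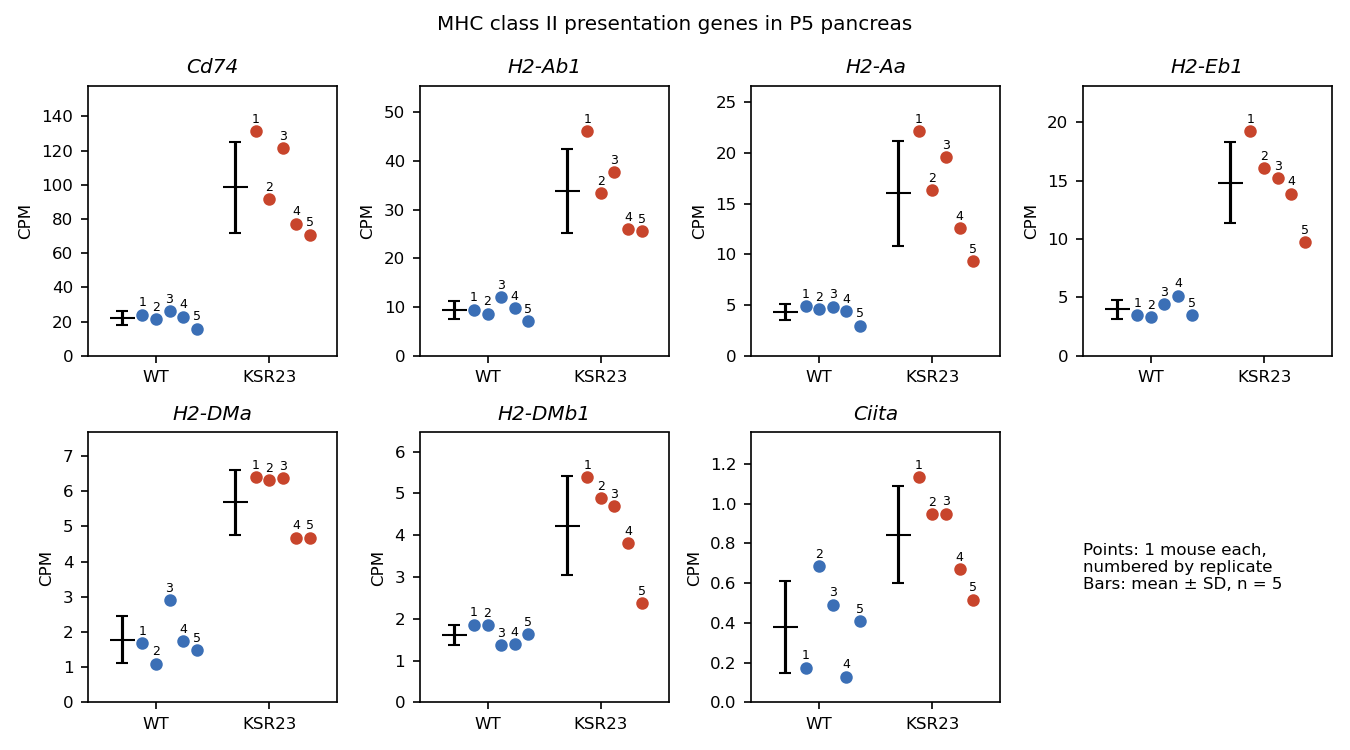
CPM of each class II member (vertical axes, linear from 0) in WT and *KSR23* pancreas at P5. Points are mice numbered by replicate and bars show the mean and SD of 5 mice. The groups are apart in every panel but that of *Ciita*. *KSR23* replicate 1 is the highest and replicate 5 the lowest *KSR23* mouse in all 7 panels, for *H2-DMa* by a narrow margin.

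The members kept a like order in both groups when their levels were set per kilobase (kb) of transcript. *Cd74* was highest at 15.7 ± 2.75 CPM per kb (SD, n = 5) in WT and 69.9 ± 19.0 in *KSR23* mice. *H2-Ab1* was next at 7.78 ± 1.47 and 27.8 ± 7.09 CPM per kb, its range apart from that of *Cd74* in both groups. *H2-Aa* and *H2-Eb1* came after it, at 3.86 ± 0.703 and 2.38 ± 0.475 CPM per kb in WT mice, with overlapping ranges. *H2-DMa* and *H2-DMb1* also overlapped, and exchanged places between the groups, at 1.08 ± 0.409 and 1.15 ± 0.170 CPM per kb in WT mice and 3.43 ± 0.555 and 3.01 ± 0.842 in *KSR23* mice. *Ciita* was last and apart from the rest, at 0.0630 ± 0.0383 and 0.140 ± 0.0409 CPM per kb.

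Members were also compared with each other. Per kb, *H2-Aa* stood at 0.499 ± 0.0637 of the level of *H2-Ab1* in WT and at 0.503 ± 0.0643 in *KSR23* mice (SD, n = 5). *H2-Eb1* stood at 0.310 ± 0.0544 and 0.322 ± 0.0460 of *H2-Ab1*. The ratio of *Cd74* to *H2-Ab1* was higher in *KSR23* mice, at 1.86 to 2.19 in WT and 2.36 to 2.77 in *KSR23* mice, with no overlap. These ratios were formed from the same counts as the fold changes and were not tested.

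The highest and the lowest *KSR23* mouse were the same for every member. *KSR23* replicate 1 was the highest and replicate 5 the lowest of the *KSR23* mice for 7 of 7 members. For *H2-DMa* both ends were near ties, at 6.39 and 6.37 CPM in replicates 1 and 3 and at 4.68 CPM in replicates 4 and 5. In WT mice no single mouse led, replicate 3 being the highest for 3 members and replicate 5 the lowest for 3. After group means were removed, the log2 CPM of a tested member correlated with the mean of the other tested members over the 10 mice with an r of 0.93 for *H2-Ab1*, 0.92 for *H2-Aa*, 0.91 for *Cd74*, 0.77 for *H2-Eb1*, 0.54 for *H2-DMa* and 0.52 for *H2-DMb1*. These values describe 10 libraries that share depth and scaling within each mouse, and they carry no test.

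The other genes of the pathway split by role. Of 15 further class II pathway genes in the files 10 were tested, of which 5 rose, 1 fell and 4 were not called, with a median log2 fold change of 0.35. The share of all genes called lower was 14.8%. The proteases made up the 5 that rose. *Ctss*, cathepsin S, which trims the invariant chain, went from 13.7 ± 2.83 to 45.2 ± 8.18 CPM (SD, n = 5) with a log2 fold change of 1.72 ± 0.14 (SE) and an edgeR adjusted p of 3.09e-08. *Lgmn*, an asparagine endopeptidase of lysosomes, rose by 1.08, *Ctsl* by 0.87, *Ctsb* by 0.42 and *Ctsd* by 0.27 on the log2 scale.

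*Ifi30*, the thiol reductase that opens disulfide bonds of antigens in endosomes and is known as an IFNγ-induced gene, moved the other way. It stood at 22.5, 19.8, 23.8, 19.7 and 23.0 CPM in WT mice and at 9.58, 11.2, 12.5, 12.4 and 10.5 CPM in *KSR23* mice. The groups did not overlap, and it fell by 0.96 ± 0.10 (SE) on the log2 scale with an edgeR adjusted p of 6.58e-07. *March1* and *March8*, ubiquitin ligases that remove class II molecules from the surface, had log2 fold changes of 0.46 ± 0.29 and -0.01 ± 0.07 (SE) and were not called. The costimulatory genes *Cd86* and *Cd40* had log2 fold changes of -0.02 ± 0.15 and -0.08 ± 0.22 (SE) and were not called either.

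The other 5 pathway genes had too few counts for the test. *H2-Oa* and *H2-Ob* encode H2-DO, the inhibitor of H2-DM. *H2-Oa* had 3, 3, 1, 0 and 3 counts in WT mice and 6, 6, 5, 8 and 12 in *KSR23* mice. *H2-Ob* had 3 to 18 counts in both groups. *H2-DMb2*, the second beta chain gene of H2-DM, had 2 to 11 counts in WT and 9 to 15 in *KSR23* mice. *Cd80*, a costimulatory ligand, had 1 to 6 and 4 to 15 counts. *H2-Eb2* had 0 counts in all 10 libraries although its window above holds the X and Y cores. With no filter on low counts none of *H2-Oa*, *H2-Ob*, *H2-DMb2* and *Cd80* was called, the smallest adjusted p being 0.143 for *H2-Oa* (edgeR).

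None of the factors that hold CIITA at the X and Y boxes was called higher. Of 7 tested, 0 were higher, 3 were lower and 4 were not called in edgeR's test, with a median log2 fold change of -0.03. *Nfyb*, a subunit of the Y box factor NF-Y, fell by 0.44 ± 0.08 (SE) on the log2 scale with an edgeR adjusted p of 0.000660. *Rfx5*, the DNA-binding subunit of the X box factor RFX, fell by 0.41 ± 0.14 (SE), and *Creb1*, which binds beside it, fell by 0.39 ± 0.12 (SE), with edgeR adjusted p of 0.0333 and 0.0232. *Rfxank*, *Rfxap*, *Nfya* and *Nfyc* lay between -0.03 and 0.10. The calls on *Rfx5* and *Creb1* were lost in 6 and 5 of 18 alternatives, with adjusted p up to 0.142 and 0.113 (edgeR). Both were lost with library size alone, without WT replicate 4 and without *KSR23* replicate 5. In addition, *Rfx5* was lost without WT replicate 1 or 5 or *KSR23* replicate 2, and *Creb1* without WT replicate 2 or *KSR23* replicate 4. *Nfyb* kept its call in all 18.

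Genes of the IFNγ axis, which induces *Ciita*, were mostly higher. Of 8 tested, 6 rose, 0 fell and 2 were not called, with a median log2 fold change of 0.33. *Irf1*, a transcription factor that IFNγ induces, rose from 12.6 ± 0.784 to 27.4 ± 2.15 CPM (SD, n = 5), with a log2 fold change of 1.12 ± 0.08 (SE) and an edgeR adjusted p of 1.21e-08. The receptor subunits *Ifngr1* and *Ifngr2* rose by 0.39 and 0.29, and the receptor kinase *Jak1* by 0.25. *Usf1*, which acts with IRF1 at a *Ciita* promoter, rose by 0.36, a call lost in 5 of 18 alternatives, each without 1 mouse (WT replicate 2, 4 or 5 or *KSR23* replicate 4 or 5), with adjusted p of 0.0502 to 0.0573 (edgeR). *Jak2* and the feedback inhibitor *Socs1* had log2 fold changes of 0.15 ± 0.10 and 0.30 ± 0.19 (SE) and were not called, although *Socs1* passed without WT replicate 1 (adjusted p = 0.0428, edgeR). *Ifng* itself had 0, 0, 1, 0 and 0 counts in WT mice and 0, 4, 2, 0 and 0 in *KSR23* mice, which is too few to compare.

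Class I presentation, which shows peptides from the cytosol to CD8 T cells, is set beside class II here. Of 13 class I genes tested 12 rose and 1 fell, with a median log2 fold change of 0.92. With 1 mouse left out 11 to 13 were called, in either direction. The rises of *Psme2* and *Erap1* lost their calls in 10 and 3 of 18 alternatives, with adjusted p up to 0.118 and 0.0813 (edgeR). *Tap1*, a subunit of the peptide transporter, rose by 1.52, the immunoproteasome subunit *Psmb8* by 1.46, the heavy chain *H2-K1* by 1.37 and beta 2 microglobulin, *B2m*, by 1.17 on the log2 scale. *KSR23* replicate 3 stood apart, with *H2-K1* at 394 CPM against 190 to 215 CPM in the other *KSR23* mice. *B2m* was at 301 CPM there against 132 to 162 CPM in the others. For both genes every *KSR23* mouse lay above every WT mouse. *Psmb10*, another immunoproteasome subunit, fell by 0.60. *Nlrc5*, the class I counterpart of *Ciita*, had 7, 6, 11, 4 and 4 counts in WT mice and 108, 52, 58, 75 and 83 in *KSR23* mice. The groups were far apart, and with edgeR's own filter the log2 fold change of *Nlrc5* was 3.24 ± 0.36 (SE) with an adjusted p of 2.72e-06, beside 1.14 ± 0.42 (SE) for *Ciita*. *Nlrc5* passed that filter through the *KSR23* mice, and with no filter its adjusted p was 4.64e-07 (edgeR). The difference between the 2 coactivators was not tested.

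**Figure D2:**
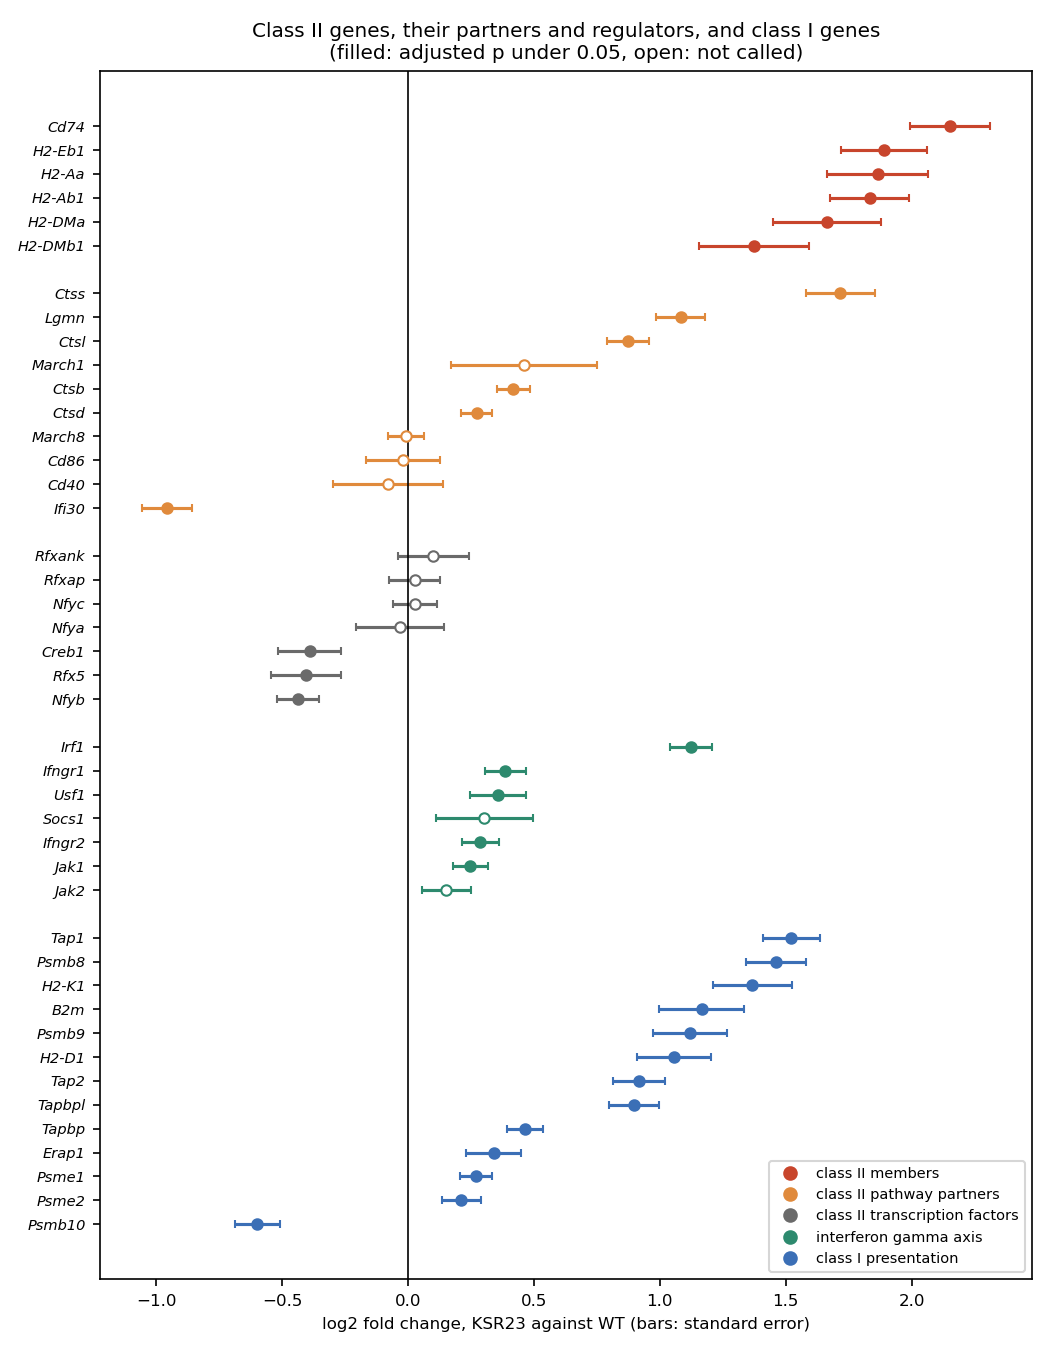
Log2 fold change of *KSR23* against WT (horizontal axis) with its SE for tested genes, grouped by role. Filled points had an adjusted p under 0.05 and open points did not. The 6 class II members lie between 1.37 and 2.15, the factors at their promoters between -0.44 and 0.10, and *Ifi30* and *Psmb10* stand to the left of 0 in their groups.

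The members of chromosome 17 sit among class I genes in one stretch. From *H2-Oa* to *H2-Eb2*, 14 counted genes followed each other and 10 were tested, of which 9 rose and 1 was not called, with a median log2 fold change of 1.49. The 9 that rose were members and class I genes already counted above, so that only *Brd2* was new here. The share of all genes called higher was 16.2%. *Brd2*, which encodes a bromodomain protein unrelated to presentation, was the exception, at 36.4 ± 4.36 CPM in WT and 38.5 ± 3.40 CPM in *KSR23* mice (SD, n = 5) and a log2 fold change of 0.08 ± 0.09 (SE). The 4 genes not tested were *H2-Oa*, *H2-DMb2*, *H2-Ob* and *H2-Eb2*. Genes with few counts lie next to genes that rose, *H2-Ob* beside *H2-Ab1* and *H2-Eb2* beside *H2-Eb1*.

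**Figure D3:**
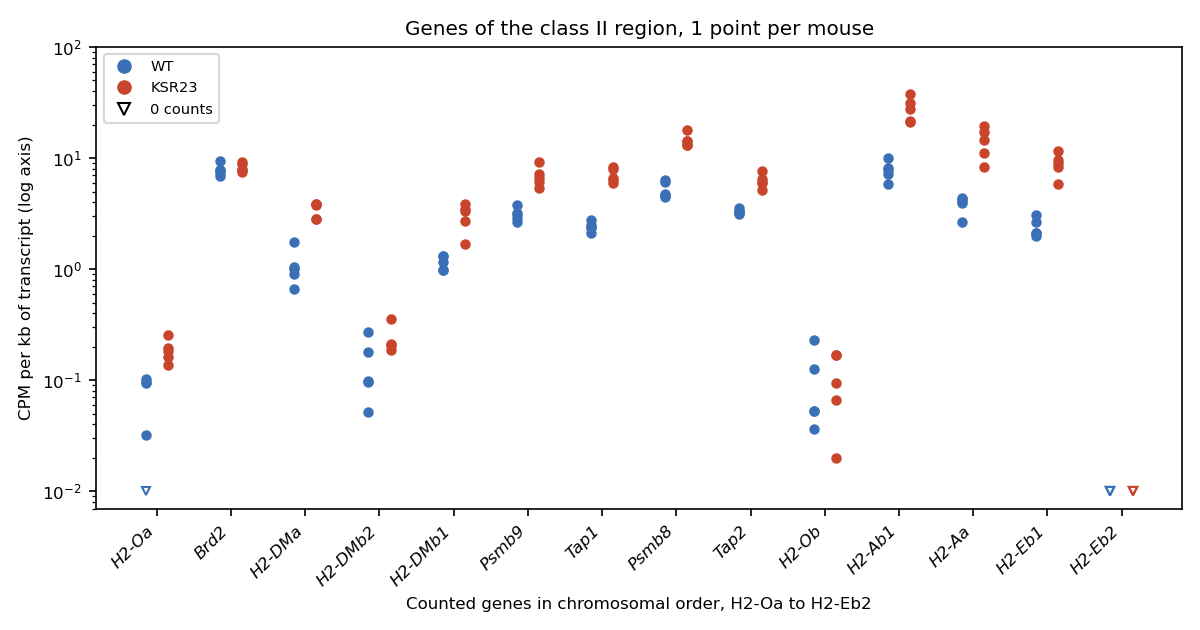
CPM per kb of transcript (log axis) for the 14 counted genes from *H2-Oa* to *H2-Eb2* in chromosomal order, with 1 point per mouse. Open triangles at the foot of the plot mark 0 counts, as in all 10 libraries for *H2-Eb2*. The *KSR23* points lie above the WT points for the class I and class II genes that were tested and mix with them for *Brd2*.

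Markers of cells that carry class II molecules moved in part. Of 13 macrophage markers 10 rose, 1 fell and 2 were not called, with a median log2 fold change of 0.71. Their summed level was 437 to 533 CPM in WT and 487 to 787 CPM in *KSR23* mice. *Cd14*, a coreceptor for bacterial lipopolysaccharide, rose by 1.85, *Fcgr1*, an Fc receptor for immunoglobulin G, by 1.35 and *Cx3cr1*, the fractalkine receptor, by 1.31, whereas *Csf1r*, the receptor that macrophages need to survive, rose by 0.61. *Mrc1* and *Mertk*, receptors of resident macrophages, had log2 fold changes of 0.03 ± 0.10 and -0.05 ± 0.17 (SE). Among the complement C1q chains *C1qb* rose by 0.80 and *C1qc* by 0.71 while *C1qa*, the third chain, fell by 0.80 on the log2 scale. *Ptprc*, the common leukocyte gene CD45, rose by 0.69. The part of these cells in the class II values was not tested.

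Class II genes were set against leukocyte genes in the same mouse. The ratio of *Cd74* to *Csf1r* CPM was 0.424 ± 0.0821 (SD, n = 5) in WT and 1.23 ± 0.179 in *KSR23* mice, and that of *Cd74* to *Ptprc* was 3.65 ± 0.864 and 10.01 ± 1.95. Neither ratio overlapped between the groups, and the ratios of *H2-Ab1* to the same genes did not overlap either. These ratios were not tested. They depend on the gene they are set against, and *Csf1r* and *Ptprc* rose by 0.61 and 0.69 on the log2 scale. No ratio was formed to *Cd14*, *Fcgr1* or *Cx3cr1*, which rose more, by 1.85, 1.35 and 1.31. In *KSR23* replicate 5 *Csf1r* was at 54.6 CPM and *Ptprc* at 5.75 CPM, within the WT ranges of 47.2 to 57.1 and 5.13 to 6.91 CPM, while *Cd74* was at 70.9 CPM against 15.9 to 26.1 CPM in WT mice. Of the 13 macrophage markers, 6 lay above every WT mouse in this replicate, 6 lay within the WT range and 1, *C1qa*, lay below it. Those above were *Cd14* (28.6 CPM, WT up to 11.9), *Cx3cr1* (9.01, WT up to 5.11), *Fcgr1* (3.66, WT up to 2.46), *C1qb* (74.2, WT up to 61.2), *C1qc* (63.0, WT up to 55.1) and *Cd68* (15.9, WT up to 15.3). The ratio of *Cd74* to *Ctss* did overlap, at 1.22 to 2.07 in WT and 1.52 to 2.59 in *KSR23* mice. So did that of *H2-Ab1* to *Ctss*, at 0.552 to 0.813 in WT and 0.510 to 0.909 in *KSR23* mice.

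**Figure D4:**
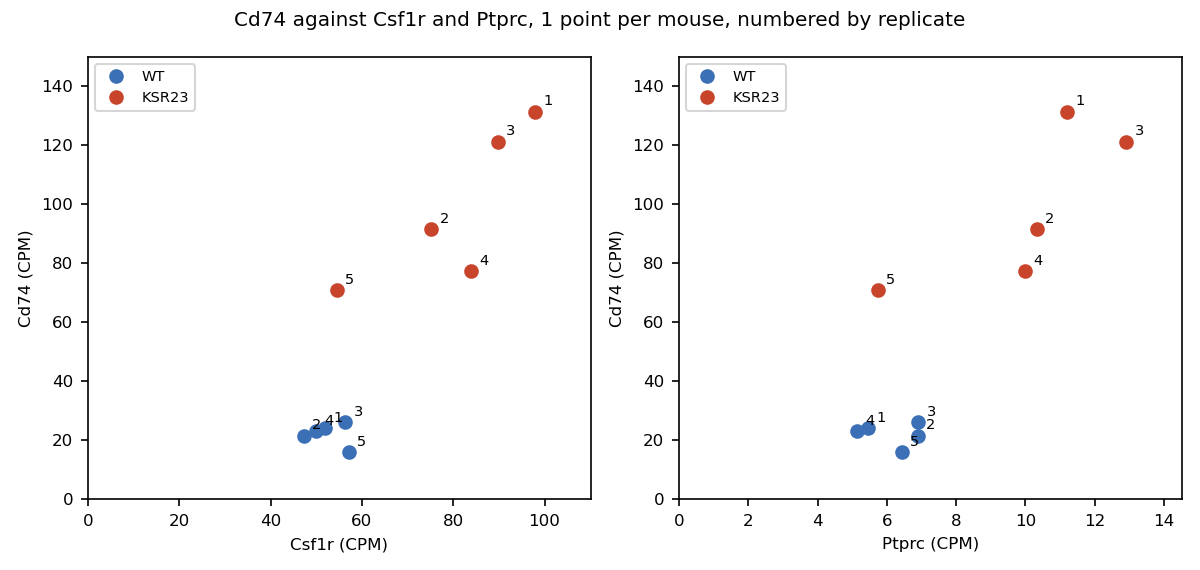
*Cd74* (vertical axes, CPM) against *Csf1r* and *Ptprc* (horizontal axes, CPM), 1 point per mouse, numbered by replicate. *KSR23* replicate 5 lies within the WT range on both horizontal axes and above all WT mice on the vertical axis. Other macrophage markers, such as *Cd14* and *Cx3cr1*, are not plotted and were above the WT range in that mouse.

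Dendritic cell markers were sparse. Of 11 in the files 3 were tested. *Batf3*, a factor of conventional dendritic cells, rose by 1.51 ± 0.35 (SE), *Fscn1*, an actin bundling protein of mature dendritic cells that other cells also make, fell by 0.25 ± 0.08 (SE), and *Zbtb46* was not called. The groups overlapped for *Batf3*, with WT replicate 5 at 1.01 CPM and *KSR23* replicate 2 at 0.829 CPM. The call on *Fscn1* was lost in 7 of 18 alternatives, with adjusted p of 0.0525 to 0.185 (edgeR), among them library size alone and without WT replicate 1 or 5 or *KSR23* replicate 1, 4 or 5. *Itgax*, which encodes CD11c, had 0, 0, 0, 8 and 0 counts in WT mice and 29, 14, 10, 21 and 48 in *KSR23* mice, so that every *KSR23* mouse lay above every WT mouse. With edgeR's own filter *Itgax* was called higher, with a log2 fold change of 3.42 ± 0.72 (SE) and an adjusted p of 0.00186. It passed that filter through the *KSR23* mice, its WT counts being 0 in all but replicate 4. It was also called with no filter (adjusted p = 0.00210, edgeR). *Xcr1*, *Clec9a* and *Flt3*, markers of conventional dendritic cells and their precursors, had 0 to 21 counts over all mice. The summed level of the list was 70.4 to 83.9 CPM in WT and 60.9 to 73.4 CPM in *KSR23* mice, nearly all of it from *Fscn1* (means of 63.6 and 53.5 CPM) and *Zbtb46* (10.9 and 9.83 CPM). The other 9 genes summed to 1.54 to 2.28 CPM in WT and 2.64 to 4.30 CPM in *KSR23* mice.

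Among the B cell markers, those with enough counts for the main filter were not called. Of 8 in the files 3 were tested and 0 were called in edgeR's test, *Cd79a* and *Cd79b*, the signalling chains of the B cell receptor, having log2 fold changes of 0.15 and -0.03. *Pax5*, the factor that defines B cells, had 0 counts in every library, and the list summed to 3.05 to 6.11 CPM in WT and 3.53 to 6.51 CPM in *KSR23* mice. *Blk*, a kinase of B cells and of some T cells, was the exception, with 2 to 10 counts in WT and 20 to 46 in *KSR23* mice. It was called higher with edgeR's own filter, which it passed through the *KSR23* mice, with a log2 fold change of 2.15 ± 0.44 (SE) and an adjusted p of 0.00132. The call was also made with no filter.

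Other lists differed in how far they moved, where 16.2% of all genes tested were called higher and 14.8% lower. Of 8 neutrophil markers tested 6 rose, their sum being 14.4 to 44.7 CPM in WT and 47.7 to 442 CPM in *KSR23* mice, the highest in replicate 3. Acinar markers fell for 6 of 8 and rose for 1, duct markers rose for 6 of 7, and 2 of 6 endothelial markers rose while 2 fell. The acinar gene that rose, *Prss2*, lost its call without WT replicate 2 or 5 (edgeR adjusted p of 0.0516 and 0.0604). Of the endothelial genes, *Tek* lost its fall in 10 and *Flt1* its rise in 8 of 18 alternatives, both of them without WT replicate 2, 3 or 5 or *KSR23* replicate 3 or 5, which left 1 gene in each direction. *Tek* was also lost without WT replicate 4 or *KSR23* replicate 1, and *Flt1* without *KSR23* replicate 4. Of the T cell markers 4 were tested, of which 2 rose, *Cd3g* and *Lck*, and 1 fell, *Cd3e*. *Lck* lost its call without WT replicate 4 or 5 or *KSR23* replicate 3 (edgeR adjusted p of 0.0763 to 0.0932) and *Cd3g* in 10 of 18 alternatives, so that neither was called without WT replicate 4 or without *KSR23* replicate 3. Of the group 3 innate lymphoid markers 0 of 2 were called. Whether any of these bears on the class II genes was not tested.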

How the data were processed

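RNA of 10 P5 pancreata (100 pg of total RNA, SMART-Seq v4 and Nextera XT, 15 and 12 PCR cycles, single-end 75-base reads) was aligned by the authors with TopHat 2.1.0 to mm10 and counted per gene with HTSeq 0.6.1p1, per the labels. The deposited values are raw counts, unnormalised, in 1 file per mouse. The 5 tally lines at the foot of each file (unplaced reads) were left out of library sizes. The strand setting and annotation release are not given in the sources used here. One library per mouse was assumed, so that p-values measure the spread between mice, and reads amplified by PCR are not independent molecules.

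Genes under 5 counts in any library were dropped, and the remaining genes were tested in edgeR 4.0.16 (R 4.3.3) by quasi-likelihood F tests after TMM scaling, with Benjamini-Hochberg adjusted p-values. The SE is the log2 fold change divided by the square root of F. CPM are counts relative to the TMM-scaled library size, and log2 CPM used a prior count of 2. Alternatives were edgeR's likelihood ratio test, DESeq2 1.42.0, 3 other scalings, 2 other filters, a block by replicate number and leaving out each mouse. Lengths are those of GENCODE principal transcripts. The genes named were the members, genes of the fixed lists, genes from *H2-Oa* to *H2-Eb2*, and the 5 genes most like the members. The transgene subunits *Il23a* and *Il12b* and the pseudogene *H2-Ea-ps* were added to these. Members and lists were chosen with earlier results of these data known. Of the listed genes, 2 count in their lists' totals but are not reported here by name. *Adgre1* is listed as *Emr1* in the count tables.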

Additional observations from a re-analysis of the deposited data

Results flagged for a closer look

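In 48 groups of 5 mice checked for 1 far value (members, ratios and the genes named beside them), 7 were found by Dixon's test at the 95% level, where chance gives about 2.4. Among members, *H2-Aa* in WT replicate 5 was 2.98 CPM, against 4.42 to 4.90 CPM in the other WT mice. A pair of ratios set *KSR23* replicate 5 apart. Per kb, *H2-Aa* to *H2-Ab1* was 0.392 there and 0.516 to 0.559 in the other *KSR23* mice, and *H2-DMa* to *H2-DMb1* was 1.67 there and 1.01 to 1.15 in the others. WT replicate 5 had the lowest ratio of *Cd74* to *Csf1r*, 0.278 against 0.456 to 0.465.

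Outside the members, *Ctss* was 18.6 CPM in WT replicate 3 and 11.6 to 13.2 CPM in the other WT mice. *Itgax* was 0.258 CPM in WT replicate 4 and 0 in the others. *Batf3* was 1.01 CPM in WT replicate 5 and 0.226 to 0.446 CPM in the others.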

How the results depend on the processing

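The 6 tested members kept their direction and call in 108 of 108 refits (18 alternatives each), with log2 fold changes of 1.26 to 2.26 and a largest adjusted p of 0.000641. Calls over all genes were 3497 to 4173 with 1 mouse left out, against 4299. No pairing of same-numbered mice is given in the sources used here. Their deviations from group means correlated with an r of -0.11 to 0.07, and 1 of 5 WT mice correlated best with its own number. Correlations of so few pairs cannot settle whether such mice were littermates or were processed together. With the replicate block 3749 genes and 6 members were called, and the block changed no call on a member. Of the listed genes called, 8 lost their call under it (*Psme2*, *Fscn1*, *Camp*, *Ngp*, *Cd3g*, *Prss2*, *Tek* and *Flt1*). Among the counts over members, pathway partners, promoter factors, IFNγ axis and class I genes, that of the promoter factors was the only count to move by more than 1.5 times, from 3 to 1 with library size alone, and it was 1 to 3 with 1 mouse left out (1 without WT replicate 4 or *KSR23* replicate 5). The cause was not tested. Library size alone moved the median log2 fold change of all genes from -0.01 to 0.09, while that of the members was 1.96. Low counts limit *Ciita*, *H2-Oa*, *H2-Ob*, *H2-DMb2* and most dendritic cell markers.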

Other observations

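Outside the members, the 5 tested genes whose log2 CPM, after removal of group means, was most like the mean of the tested members over the 10 mice were *Fam229b* (r = 0.93), *Zdhhc13* (r = 0.93), *Cyp1b1* (r = 0.92), *Mier1* (r = 0.90) and *Rnpc3* (r = 0.90). Between the groups *Cyp1b1* rose by 1.26 on the log2 scale (edgeR adjusted p of 0.00255). The others were not called, with log2 fold changes of -0.05 to 0.14. *Csf1r* had an r of 0.72 on the same measure, at rank 200 of 13876 genes. Other macrophage markers were lower, at 0.64 for *Cd68*, 0.57 for *Adgre1*, 0.37 for *Cx3cr1* and 0.35 for *Cd14*. *Ptprc* had an r of 0.66 and *Batf3* an r of -0.33. The 5 genes were picked as the highest of all tested genes, so that their r values carry no test.

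The chains of the T cell receptor complex went in different directions. *Cd3e* fell from 4.01 ± 0.657 to 1.45 ± 0.481 CPM (SD, n = 5), with an edgeR adjusted p of 5.77e-05. *Cd3g* had a log2 fold change of 0.87 whose call was lost in 10 of 18 alternatives (adjusted p of 0.0535 to 0.0878), among them the omission of any mouse but WT replicates 3 and 5 and *KSR23* replicate 4. *Cd3d*, which was not tested, had 2 to 5 counts in WT and 11 to 30 in *KSR23* mice. In WT mice the means of *Cd3g* and *Cd3d* were 0.382 and 0.110 CPM, far below that of *Cd3e*. Whether the counts of *Cd3e* came from T cells was not tested. *Il23r*, which encodes a subunit of the IL-23 receptor, had 0 counts in every WT library, against 15, 5, 5, 1 and 12 in *KSR23* replicates 1 to 5.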
